A study of Homo sapiens with 4 samples.

Results

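The genes described here are 10 members of the major histocompatibility complex (MHC) class II antigen presentation system: HLA-DRA, HLA-DRB1, HLA-DRB3, HLA-DRB4, HLA-DPA1, HLA-DPB1, HLA-DQA2, HLA-DMA, HLA-DMB and CD74. They were picked by symbol, from an RNA sequencing comparison that listed 210503 gene identifiers, and all 10 were among those identifiers. The choice was made with the results of this comparison known, so the values below describe the genes and test nothing. Of the 10 members, 9 were in the authors' deposited table of 684 changed genes, and CD74 was not.

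The cells were LP-1, an established human multiple myeloma line that the labels class as a B lymphoblast. The HRP2 knockdown group held 2 libraries of cells given a lentiviral guide RNA construct against HRP2, a chromatin reader whose gene is HDGFL2, and the control group held 2 libraries of cells given a non-target construct. Both groups were cultured alike. Clonality is not described in the labels, and neither is whether the libraries stem from independent cultures, so the deposited significance may rest on technical variation only. For each gene, the deposited table holds a log2 ratio (knockdown over control) with its Q value, a p-value corrected for many genes. Library-level values were not used here, so no fold change has an SD and the sequencing depth is unknown. HDGFL2 itself, the target, stood at -1.37 on the log2 scale in the authors' deposited table (0.388 times the control level, Q = 2.99e-13).

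MHC class II molecules are pairs of an alpha and a beta chain that carry peptides from endocytosed proteins to the surface of B cells, dendritic cells and macrophages, where CD4+ T cells read them. DR, DP and DQ are the presenting molecules. CD74, the invariant chain, holds the newly made groove closed and guides it to the endosome, where proteases trim it and the DM molecule exchanges the last fragment for peptide. Transcription of these genes rests on a shared promoter module of an X box, bound by the RFX complex and CREB, and a Y box, bound by NF-Y, on which the coactivator CIITA assembles. Plasma cells normally shut this programme down as CIITA is silenced.

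The promoter sequences are shown because the X and Y boxes are the known common module of this gene family. No motif match was used to pick the members. They were picked as a family known for this module, however, so shared matches are not an independent result. RefSeq start sites (GRCh38.p14, a later build than the authors' hg19) gave 8 promoters for 7 of the 10 genes, with HLA-DPA1 listed at both of its starts. No promoter was available for HLA-DRA, HLA-DRB3 or HLA-DRB4. The 120 bases just before the start of the 6 genes with a Y box match read as follows, 5′ to 3′ on the gene's strand. Capitals mark a Y box (CCAAT on either strand, hence CCAAT or ATTGG), an X1 box core (AACNGATG) or the shorter motif TGATGA.
HLA-DRB1, chr6:32589849-32589968, minus strand: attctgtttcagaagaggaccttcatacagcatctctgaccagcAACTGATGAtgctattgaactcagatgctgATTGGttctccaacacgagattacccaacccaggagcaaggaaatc
HLA-DPB1, chr6:33075870-33075989, plus strand: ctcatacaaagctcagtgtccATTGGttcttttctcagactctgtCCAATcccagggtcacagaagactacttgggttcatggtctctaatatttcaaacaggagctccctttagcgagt
HLA-DQA2, chr6:32741271-32741390, plus strand: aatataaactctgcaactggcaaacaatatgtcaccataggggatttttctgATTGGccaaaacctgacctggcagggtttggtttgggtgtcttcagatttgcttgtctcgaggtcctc
HLA-DMA, chr6:32953098-32953217, minus strand: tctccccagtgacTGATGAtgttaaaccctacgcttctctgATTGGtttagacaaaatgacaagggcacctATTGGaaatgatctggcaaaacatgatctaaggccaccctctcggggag
HLA-DMB, chr6:32941029-32941148, minus strand: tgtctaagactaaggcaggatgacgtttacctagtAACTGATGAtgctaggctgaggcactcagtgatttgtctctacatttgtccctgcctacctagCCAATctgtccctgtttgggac
CD74, chr5:150412911-150413030, minus strand: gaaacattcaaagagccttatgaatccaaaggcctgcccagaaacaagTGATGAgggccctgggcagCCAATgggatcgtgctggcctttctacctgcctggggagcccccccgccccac

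Matches were counted on both strands over the full window of 250 bases before to 50 bases after each start. The Y box letters were present in 6 of the 8 member promoters, those printed above, and in 34.6% of all 35116 promoters in the table. The X1 core was present in 2 member promoters, HLA-DRB1 and HLA-DMB, and in 1.99% of all promoters. The letters of a full cyclic AMP response element, TGACGTCA (1.85% of all promoters), and of GCGTCA (9.14%), the X2 box type of HLA-DRA, were found in 0 of the 8. The promoter of HLA-DRA itself was not among the 8 and was not searched. TGATGA, chosen after the sequences had been read, was present in 5 of the 8 and in 10.9% of all promoters. It overlapped an X1 core match in HLA-DRB1 and HLA-DMB only. TGATGA lay upstream of the next Y box by 21 bases in HLA-DRB1, 22 in HLA-DMA, 13 in CD74 and 54 in HLA-DMB. In HLA-DPA1 the match lay 32 bases after the start, on the opposite strand, in a promoter without a Y box match. CD74, the member outside the deposited gene table, thus carries the same Y box letters as 5 of the members inside it. A match is a description of letters and not a bound site.

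**Figure D1:**
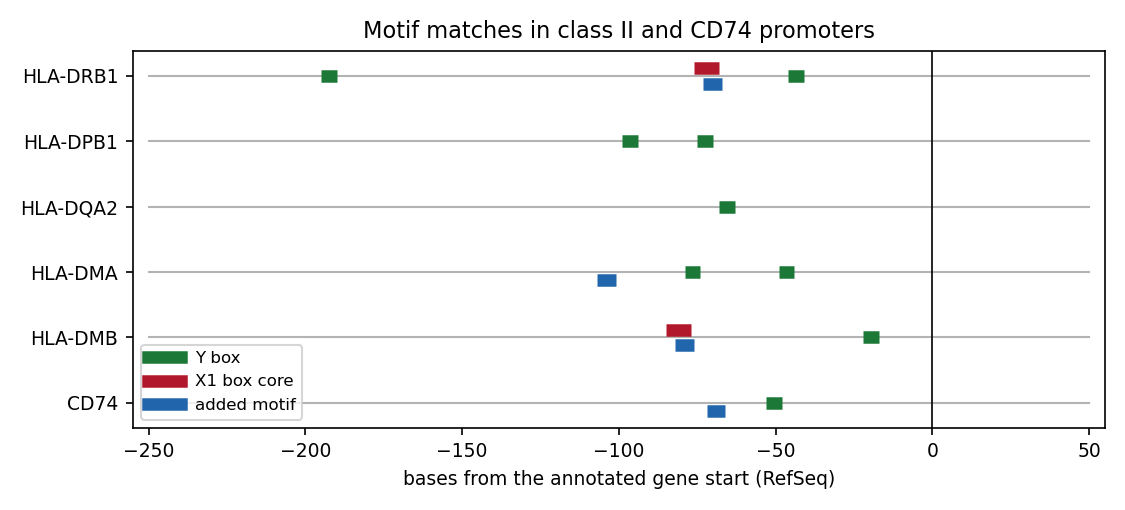
Motif matches on the RefSeq promoters of 6 members, drawn by distance in bases from the annotated start, on either strand. The Y box (green) is seen in each of the 6, the X1 core (red) in HLA-DRB1 and HLA-DMB, and the added motif TGATGA (blue) upstream of a Y box in HLA-DRB1, HLA-DMA, HLA-DMB and CD74.

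In HRP2 knockdown cells all 9 members in the deposited gene table were higher than in control cells, by 1.40 to 1.67 times. Their log2 fold changes ran from 0.48 to 0.74, with a median of 0.60, beside a median of 0.66 over the 361 higher genes of the table and of 0.47 over all 684 genes. Of the 24237 mRNA genes listed, 2.81% were in the table in either direction and 1.49% were higher. No filter on expression was applied here to the 24237, so the share among expressed genes is not known and could be larger. The members were picked on this contrast, so nothing is read from their count. In RNA from whole cultures, more cells of a class II positive kind and more RNA per cell cannot be told apart.

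The DR genes encode the most abundant class II molecule on most B lineage cells. HLA-DRA, the DR alpha chain shared by every DR molecule, stood at 0.50 on the log2 fold change scale of the authors' deposited table (1.41 times the control level, Q = 0.0119). HLA-DRB1, the main DR beta chain, stood at 0.63 (1.55 times, Q = 0.0267). The additional DR beta chain genes are carried by some haplotypes and not by others. Of these, HLA-DRB3 stood at 0.69 (1.61 times, Q = 0.0114) and HLA-DRB4 at 0.60 (1.51 times, Q = 0.0475, close to the table's largest Q value of 0.0495). The beta chains thus each had a larger value than the alpha chain, but without standard errors it is not known whether these values differ beyond the spread between libraries.

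The DR beta genes are near-identical copies, and reads can be split between them. HLA-DRB1 shared 24.6% of the 31-nucleotide words of its transcript with transcripts of other genes, 19.5% with HLA-DRB5 and 6.67% with HLA-DRB6. HLA-DRB3 and HLA-DRB4 are not on the primary assembly that this set of transcripts covers, so their sharing was not computed and the share for HLA-DRB1 leaves them out. The values of HLA-DRB1, HLA-DRB3 and HLA-DRB4 are therefore uncertain as values of single genes. HLA-DRA, with 0% of its words shared, does not have this limit.

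The DP pair had nearly the same value. HLA-DPA1, the DP alpha chain, had a log2 fold change of 0.55 (1.47 times, Q = 0.0103) and HLA-DPB1, the DP beta chain, one of 0.57 (1.49 times, Q = 0.00253, the smallest Q value among the members), both from the authors' deposited table. Shared words made up 0% of the HLA-DPA1 transcript and 5.95% of that of HLA-DPB1, of which 4.05% were shared with the pseudogene HLA-DPB2. HLA-DQA2 encodes an alpha chain of the DQ family and is a paralogue of the classical DQ alpha gene. It had the smallest value of the 9, 0.48 (1.40 times, Q = 0.0316), and shared 17.9% of its words with other genes, so it too is uncertain as a value of a single gene.

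HLA-DMA and HLA-DMB encode the DM dimer, the peptide exchange catalyst of the endosome. They had the largest values of the 9 in the authors' deposited table, at 0.74 for HLA-DMA (1.67 times, Q = 0.00399) and 0.71 for HLA-DMB (1.64 times, Q = 0.0045). Words of HLA-DMA were shared at 13.2% and those of HLA-DMB at 30.0%, in each case with the same annotated locus, AL645941.2. Both are therefore also uncertain as values of single genes, and the share of HLA-DMB was the largest computed for any member. CD74, the invariant chain, is listed among the genes but has no row in the deposited gene table or transcript table, so its fold change is not known and it is not shown to be unchanged. It shared 0% of its words with other genes.

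**Figure D2:**
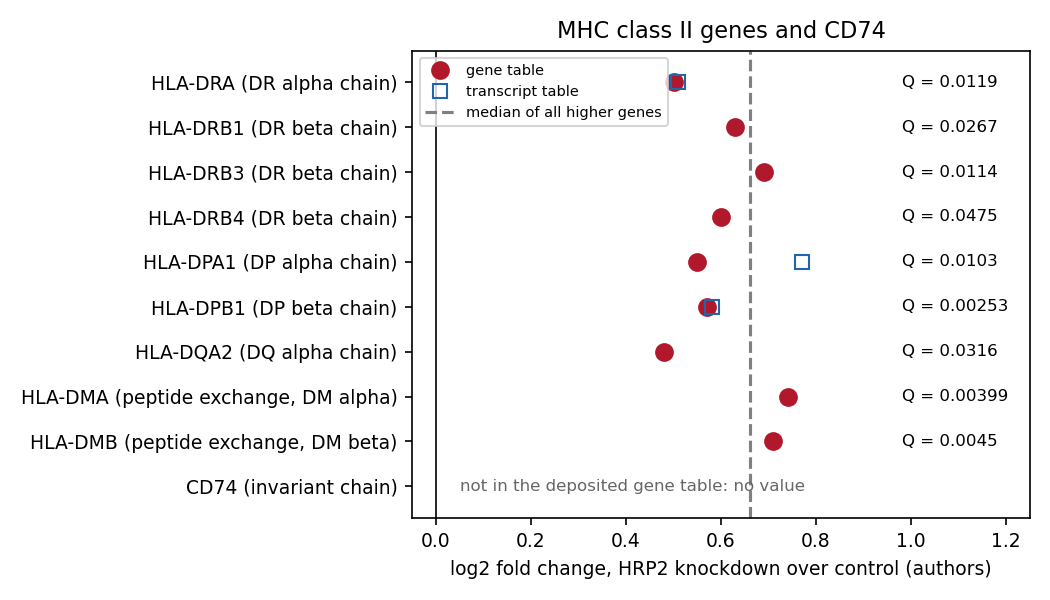
Log2 fold changes of HRP2 knockdown over control from the authors' deposited gene table (filled circles) and transcript table (open squares), with the gene-level Q value at the right and no error bars, since values per library were not used here. The 9 members with a value lie between 0.48 and 0.74, and CD74 has none.

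The members' increases lay on both sides of the median of the higher genes, with HLA-DMA, HLA-DMB and HLA-DRB3 above it and the other members below. Ranked by log2 fold change among the 361 higher genes, HLA-DMA was number 122 and HLA-DQA2 number 329. The members' range of values was narrow, 0.26 on the log2 scale, and it held 208 of the higher genes (57.6%). By Q value HLA-DPB1 ranked 77 and HLA-DRB4 ranked 357. HLA-DRB4 lay just inside the table's threshold of 0.05, and CD74, outside it, has no value.

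**Figure D3:**
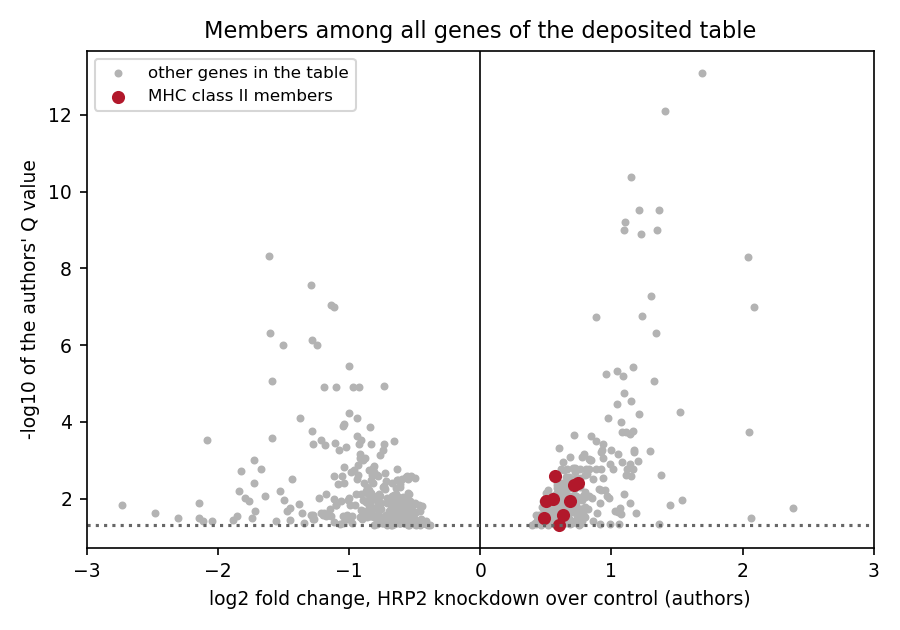
Every gene of the deposited table by log2 fold change (knockdown over control) and by -log10 of the Q value, with the 9 members in red; 9 other genes beyond 3 on the log2 scale fall outside the axis. The members lie between 0.48 and 0.74, on both sides of the median of 0.66 over the higher genes, and above the dotted line at a Q value of 0.05.

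The members on chromosome 6 that have a place in the reference order lie between HLA-DRA and HLA-DPB1, where 7 of them are interleaved with 10 other protein-coding genes reported here. These 10 had no row in the deposited table. Only 2.81% of all mRNA genes had one, so nothing is read from this count. The stretch also holds a class II chain gene that does have a row and is not reported here, so the members are not the only genes of the stretch with a value. The 10 comprise 5 class II chain genes (HLA-DRB5, HLA-DQB1, HLA-DQB2, HLA-DOB and HLA-DOA), the class I peptide transporter genes TAP1 and TAP2, the immunoproteasome genes PSMB8 and PSMB9, and the chromatin reader gene BRD2. HLA-DOA and HLA-DOB encode DO, an inhibitor of DM. Towards the telomere of the short arm, 16 protein-coding genes without a row separate HLA-DRA from C4A, a complement gene with a near-identical copy, at 6.15 (Q = 0.0354, authors' deposited table). Towards the centromere, 9 separate HLA-DPB1 from PFDN6, a prefoldin chaperone subunit gene, at 0.50 (Q = 0.0407). Over the whole of chromosome 6, 32 other genes reported here were in the table, 17 of them higher and 15 lower. The whole table held 361 higher and 323 lower genes. No total of chromosome 6 genes is set beside the 32, so nothing is read from that number.

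**Figure D4:**
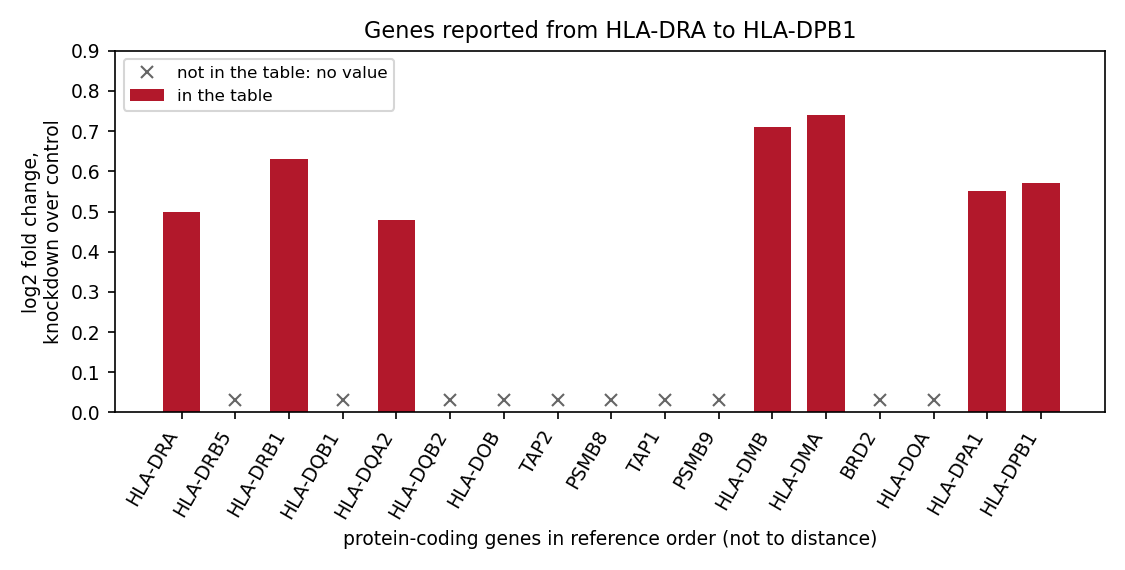
Log2 fold changes (knockdown over control, authors' deposited table) of the genes reported between HLA-DRA and HLA-DPB1, in reference order and not to distance. The 7 members have bars from 0.48 to 0.74, and crosses mark 10 genes with no row and so no value. A further class II chain gene of the stretch, which has a row, is not drawn.

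At the transcript level, 3 member transcripts were among the 1040 of the authors' deposited transcript table, of which 530 were higher. No total of all transcripts listed is set beside the 3, so nothing is read from that number. The HLA-DRA transcript stood at 0.51 (Q = 0.00856), the HLA-DPB1 transcript at 0.58 (Q = 0.0149) and an HLA-DPA1 transcript at 0.77 (Q = 0.0454), on the log2 scale. For HLA-DRA and HLA-DPB1 the transcript values were close to the gene values of 0.50 and 0.57, and for HLA-DPA1 it was above the gene value of 0.55. These come from the same libraries as the gene table and are not independent of it. All 3 belong to the 217 transcripts with an absolute log2 fold change under 6, not to the 823 larger ones.

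Rows for regulators of class II transcription are to be read beside the 2.81% of all mRNA genes that had one. Of 22 genes on this list, among them CIITA, RFX5, RFXAP, RFXANK, the 3 NF-Y subunits and CREB1, the only one in the authors' deposited table was IRF4, a transcription factor of B cell activation and plasma cells, which was lower at -0.63 (0.646 times the control level, Q = 0.00323). Single transcripts of these regulators did appear in the authors' deposited transcript table. A CIITA model transcript stood at 5.91 (Q = 0.0282) on the log2 scale. An RFX5 model transcript stood at 10.28 (Q = 5.15e-06), a CREB1 model at 9.60 (Q = 0.000216), and a model of CREBBP, an acetyltransferase recruited by CIITA, at 24.30 (Q = 0.00011). All of these were higher in the knockdown, but none of the 4 genes had a row at gene level. They were named after their values were seen, and of the 1040 transcripts 530 were higher and 510 lower. Nothing is therefore read from their shared direction. The levels of these transcripts in each group are not known, and a level near 0 in 1 group was not tested. Their values are therefore not shown to hold for the RNA of the whole gene. The RFX5, CREB1 and CREBBP values belong to the 823 of 1040 transcripts at 6 or more on the absolute log2 scale, a size that no member's gene value approached. IRF4 had a curated transcript at -1.04 (Q = 0.0108) and a model transcript at 1.93 (Q = 0.000426).

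Genes of lysosomal processing, a list of proteases and other lysosomal genes, went both ways. Of 16 on the list 4 were in the authors' deposited gene table, 2 higher and 2 lower, and their log2 fold changes had a median of 0.02. Over all mRNA genes, 2.81% had a row and 1.49% were higher, and nothing is read from the list's count. LGMN, which encodes the asparaginyl endopeptidase that can start the cleavage of the invariant chain, was higher at 1.10 (2.14 times the control level, Q = 1.01e-09), more than any class II member, and CTSC, a dipeptidyl peptidase gene, was higher at 0.58 (Q = 0.0252). The aspartic protease gene CTSD was lower at -0.54 (Q = 0.00778) and TFEB, a transcription factor of lysosomal genes, at -0.64 (Q = 0.0425). CTSS, the main late protease of the invariant chain in B cells, and IFI30, the endosomal thiol reductase, had no row.

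Beside the 2.81% of all mRNA genes with a row, lists of this size can be without any, and nothing is read from their counts. None of the 22 genes of the class I list and none of 17 genes of antigen presenting B cells, CD40, CD80 and CD86 among them, was in the authors' deposited gene table. Of the interferon gamma pathway, the classical inducer of CIITA outside the B lineage, 2 of the 20 genes reported here had a row. CXCL10, an interferon-inducible chemokine, was higher at 2.09 (Q = 1e-07), while IRF1, a transcription factor that activates CIITA, was lower at -0.58 (Q = 0.0432). A gene without a row has no value, so these counts do not show that the rest were unchanged.

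**Figure D5:**
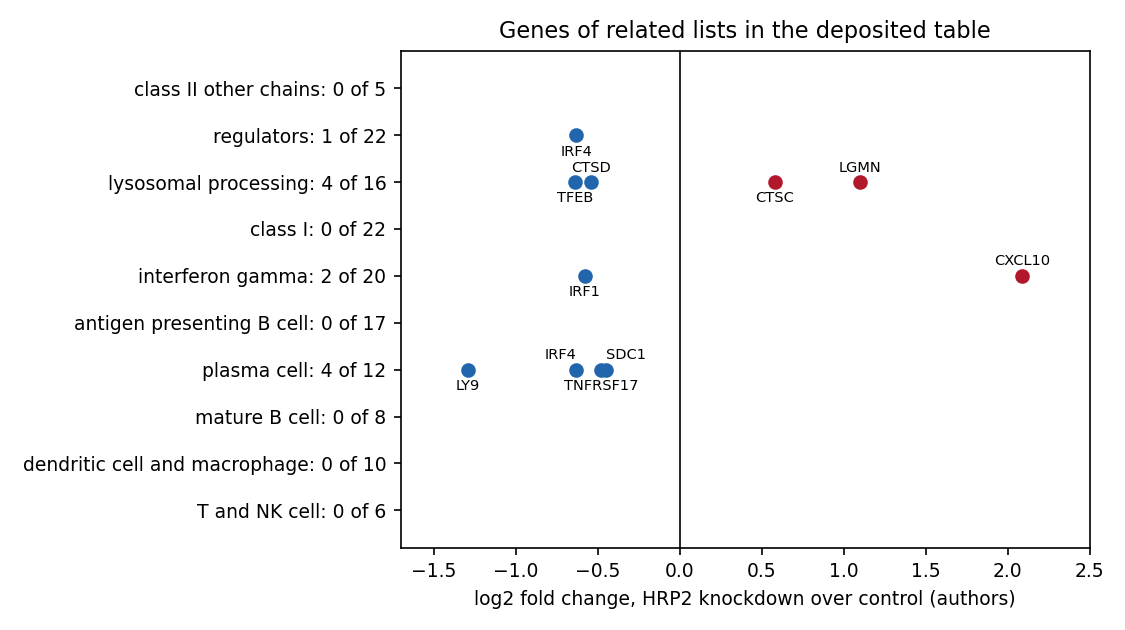
Genes of 10 related lists that had a row in the authors' deposited gene table, by log2 fold change of knockdown over control, red where higher and blue where lower, with the count of such genes per list at the left. Genes not reported here, some of which have a row, are left out of the counts. The regulators hold IRF4 alone, and the lysosomal and interferon gamma lists hold genes on both sides of 0.

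Markers of the cell's own identity and of other class II positive cells were set beside the members. Of 12 plasma cell markers 4 were in the authors' deposited gene table, all lower: LY9 at -1.29, IRF4 at -0.63, TNFRSF17 at -0.48 and SDC1 at -0.45. The others, CD38, SLAMF7, PRDM1, XBP1, JCHAIN, MZB1, DERL3 and FCRL5, had no row and so no value. Over all mRNA genes 2.81% had a row, and 323 of the table's 684 genes were lower. Nothing is read from the count of markers. None of 8 mature B cell markers, and none of 10 dendritic cell and macrophage markers or 6 T and NK cell markers, had a row, and their levels in each group are not known. Whether the lower plasma cell markers had a part in the higher class II values was not tested.

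Base composition differed between the table's directions, and the members' median fell nearer to that of the higher genes. The median GC content of the longest transcript came to 45.7% over the 357 higher genes with a transcript and to 56.1% over the 320 lower ones. The 7 members in the table with a transcript, themselves among the higher genes, had a median of 48.8%, with HLA-DQA2 lowest at 47.0% and HLA-DRB1 highest at 54.9%. HLA-DRA, HLA-DPA1, HLA-DPB1 and HLA-DQA2 lay nearer to the median of the higher genes. HLA-DRB1, HLA-DMA (53.2%) and HLA-DMB (52.3%) lay nearer to that of the lower genes, although HLA-DMA and HLA-DMB had the largest log2 fold changes. CD74 was at 58.7%, above each of the 7. The part of GC content in the members' values was not tested.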

How the data were processed

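RNA sequencing libraries of LP-1 cells, 2 of HRP2 knockdown and 2 of control, were compared by the authors. The submitters' processing notes name BWA, Bowtie2, RSEM and the build hg19. Their test, annotation, strandedness and normalization were not given in the sources used here. Per the file headers, the deposited values are log2 fold changes of knockdown over control. The Q value beside each was also deposited by the authors, and all were under 0.05. Library-level values were not used, so no test, block or set test was run and depth is unknown. Members and lists were chosen with earlier results of these data known. The genes named are all members, list genes in the table, genes between the chromosome 6 members and the nearest genes with a row on either side. Transcripts named singly and the motif TGATGA were chosen after their values or letters were seen. Some genes, among them a class II chain gene and others with a row in the table, are not reported here and are left out of the list and region counts, so those counts are incomplete. Words of 31 nucleotides came from the longest protein-coding transcript of each gene in GENCODE 29, and word and motif searches were tested on simulated or short known sequences (Python 3.11.15, pandas 2.3.3). Promoters are from RefSeq (GRCh38.p14).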

Additional observations from a re-analysis of the deposited data

How the results depend on the processing

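Stricter limits on the authors' deposited values left fewer members, all higher in the knockdown. A Q value under 0.01 left 3 of the 9 (HLA-DPB1, HLA-DMA and HLA-DMB). A minimum of 0.58 on the absolute log2 scale left 5, and a minimum of 1 left 0. Over the 361 higher genes of the table the median Q value was 0.0169 and the median log2 fold change 0.66. No member reached 50% of shared words, so that limit removed none of the 9, but HLA-DRB3 and HLA-DRB4 had no transcript to assess. Leaving out HLA-DQA2, HLA-DRB3 and HLA-DRB4 gave 6. The members' median log2 fold change stayed at 0.60 under both of these and was 0.58 without HLA-DMA. With a Q value under 0.01 the lysosomal list kept 1 higher (LGMN) and 1 lower gene (CTSD), the interferon gamma list 1 higher (CXCL10) and 0 lower, the plasma cell markers 2 lower (LY9 and IRF4), the regulators IRF4, and the member transcripts 1 (HLA-DRA). No paired analysis was possible because the deposited comparisons carry no values per library. Leaving out a replicate, another normalization and a filter on low counts were not run for the same reason. Genes without a row have no value, which limits every count here. The share of all genes or transcripts that pass each stricter limit is not given, so nothing is read from these counts.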

Other observations

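Some genes of antigen processing had transcripts with large values but none, or an opposite one, at gene level in the authors' deposited tables. TFEB, lower as a gene at -0.64, had a transcript at -8.78 and another at 9.24 on the log2 scale. CTSB, an endosomal cysteine protease gene, had a transcript at -9.05 without a row at gene level. IRF2, an interferon regulatory factor gene, had a transcript at -2.11 and another at 23.11. Among class I genes with no row at gene level, a model transcript of HLA-E, a ligand of NK cell receptors, stood at 8.56 and a non-coding model of NLRC5, the class I counterpart of CIITA, at 8.36. The levels of all these transcripts in each group are not known. LGMN had a model transcript at 1.52 (Q = 1.25e-05), in the same direction as its gene value of 1.10.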
